A study of Mus musculus with 4 samples.

Results

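NF-kB is the family of transcription factors that switches on inflammatory and survival genes, and 10 of its genes were followed here through the cells of mouse pancreatic tumours. They were chosen by gene symbol as the subunits and direct feedback targets of the pathway, and all 10 were found once each among the 32285 genes of every library. The libraries were single-cell RNA libraries (10x Genomics 3' v3.1) from 4 mice. Of these, 2 mice (TAK-981 1 and TAK-981 2) received TAK-981, also called subasumstat, an inhibitor of the enzyme that activates SUMO, a small protein attached to other proteins. The other 2 mice (vehicle 1 and vehicle 2) received the vehicle Cremophor. All 4 tumours came from the KPC46 organoid line in B6/129 F1J mice, a mouse pancreatic cancer model. A single tumour line was therefore sampled, and the labels give neither the alleles of KPC46 nor the dose or duration of treatment.

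In a resting cell NF-kB dimers are held in the cytoplasm by IkB proteins. Signals from TNF, IL-1 or Toll-like receptors lead to the breakdown of the IkB protein, and the freed dimer enters the nucleus. Many of its first targets, among them the IkB genes themselves, shut the response off again, so their RNA is commonly read as a trace of recent NF-kB activity. IkBα is also a known SUMO acceptor. The subunits are encoded by Rela (p65), Nfkb1 (p105, processed to p50), Nfkb2 (p100, processed to p52) and Relb, the partner of p52 in the non-canonical pathway. Nfkbia and Nfkbie encode the inhibitors IkBα and IkBε, and Bcl3 encodes an atypical IkB that acts in the nucleus with p50 or p52. Tnfaip3 encodes A20, a ubiquitin-editing enzyme that dampens signalling, and Birc3 encodes cIAP2, a ubiquitin ligase at TNF receptors. Tnfaip2 is a TNF-induced gene whose protein takes part in cell protrusions and membrane nanotubes.

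The promoters of 3 genes are shown, because Tnfaip2 carried the single call of the comparison, Nfkbia encodes the classical feedback inhibitor, and Nfkb2 held the most matches to the kappaB motif. Each sequence is the 250 bases before a RefSeq transcription start (build GRCm38.p6, the assembly called mm10), read along the strand of the gene, with matches to the kappaB motif on either strand in capitals.
Tnfaip2, chr12:111442411-111442660, plus strand: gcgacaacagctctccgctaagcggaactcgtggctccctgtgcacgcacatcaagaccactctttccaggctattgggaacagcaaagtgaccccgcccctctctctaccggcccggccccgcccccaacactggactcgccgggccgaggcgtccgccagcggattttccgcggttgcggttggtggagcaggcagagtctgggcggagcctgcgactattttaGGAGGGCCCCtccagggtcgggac
Nfkbia, chr12:55492648-55492897, minus strand: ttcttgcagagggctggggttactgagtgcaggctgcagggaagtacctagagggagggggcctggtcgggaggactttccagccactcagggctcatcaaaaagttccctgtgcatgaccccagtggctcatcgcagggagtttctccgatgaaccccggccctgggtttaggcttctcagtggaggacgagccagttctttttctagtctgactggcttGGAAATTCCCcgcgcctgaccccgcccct
Nfkb2, first window, chr19:46304487-46304736, plus strand: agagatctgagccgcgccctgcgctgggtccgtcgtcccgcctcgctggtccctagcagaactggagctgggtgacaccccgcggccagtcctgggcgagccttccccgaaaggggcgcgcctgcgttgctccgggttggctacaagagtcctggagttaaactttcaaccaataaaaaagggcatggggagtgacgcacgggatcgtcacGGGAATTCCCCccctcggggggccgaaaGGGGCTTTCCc
RefSeq windows were found for 8 of the 10 genes, 11 windows in all. A kappaB match lay in the windows of 5 of these 8 genes (Tnfaip2, Nfkbia, Nfkb2, Tnfaip3 and Nfkbie), against 8.23% of 27025 genes in the table. Counted by window it was 7 of the 11, against 7.25% of 32851 windows of the same length. The Tnfaip2 match began 24 bases before the start and the Nfkbia match 29 bases before it, both on the opposite strand. In the Nfkb2 window 2 overlapping matches began 39 and 38 bases before the start and the third 11 bases before it. A match is a run of letters and does not show that a factor binds there. In the annotation of the same build all 10 genes are protein coding. Genes on the opposite strand overlap Tnfaip2 (Gm40578), Nfkb2 (Psd and AC114539.1) and Bcl3 (Gm16174 and Gm16175), and Gm43430 overlaps Nfkb1 on its own strand. How the counting used the strand is not given in the sources used here, so reads of these partners cannot be told apart from those of the 4 genes.

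The matrices held 26376608 and 63898760 UMIs (unique molecular identifiers, each counting 1 captured RNA molecule) in the TAK-981 libraries, against 24411656 and 29041348 in the vehicle libraries. After quality limits and doublet removal 2214 and 3110 cells were analysed in the TAK-981 libraries, against 4408 and 4130 in the vehicle libraries. The median cell had 5024.5 and 12831 UMIs under TAK-981, against 2269 and 4148 under vehicle, and its mitochondrial share was 6.90% and 5.11%, against 2.93% and 2.70%. Samples of low viability also had dead cells removed, and the labels do not say which. Between 1 and 10 barcodes were shared by any pair of libraries. The cells formed 24 clusters, named from marker genes as resembling a cell type, and 3 clusters stayed unnamed. Of the classes, 7 had at least 15 cells in every library and were compared. Neutrophil-like cells numbered 39 and 40 under TAK-981, against 545 and 383 under vehicle, and dendritic-like and endothelial-like cells fell below 30 in at least 1 library. RNA of other cell types moved with the treatment in some classes. Summed acinar markers (12 genes, 11 of them with a UMI, Amy2a5 at 0) stood at 4729 and 571 CPM in neutrophil-like cells under TAK-981, against 139 and 45.1 CPM under vehicle. In macrophage-like cells the same list stood at 527 and 233 CPM, against 50.1 and 30.1 CPM. Their part in the results below was not tested.

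CPM below means a gene's UMIs per 1000000 UMIs after the cells of 1 class in 1 library were added up and scaled by TMM. Across the tumour the highest mean of each gene lay in neutrophil-like or dendritic-like cells. Macrophage-like cells ranked lower, as with place 6 of the 7 classes for Relb and place 5 for Nfkb2 and Rela. This order is a description, since the classes were built from the same cells. On a scale shared by all classes, Nfkbia averaged 4268 ± 1993 CPM in neutrophil-like cells (SD over 4 libraries, lowest 1942, highest 6762). The next class, dendritic-like cells, averaged 814 ± 163 CPM, and its highest library (1046 CPM) lay below the lowest neutrophil-like one. Epithelial-like cells were last with 147 ± 43.8 CPM, below every library of the fibroblast-like class next to them.

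The other inhibitors and targets had a similar order. Mean levels of Nfkbie, Birc3, Tnfaip2, Tnfaip3, Bcl3, Rela and Nfkb2 over the 4 libraries were also highest in neutrophil-like cells. Among these Nfkbie (157 ± 38.6 CPM) stood clear of the next class in all 4 libraries. In the TAK-981 libraries alone the first place did not hold for all of them. Nfkb2 was at 67.0 and 0 CPM there, against 98.8 and 115 CPM in dendritic-like cells. Tnfaip3 was at 228 and 404 CPM, against 320 and 505 CPM in T or NK-like cells. Nfkb1 and Relb were highest in dendritic-like cells. Relb averaged 121 ± 36.5 CPM there (88.3 to 153 CPM), and its next class, neutrophil-like cells, averaged 36.4 ± 19.97 CPM with no overlap. Tnfaip3 had a second place of its own in T or NK-like cells with 454 ± 139 CPM, where the lowest library (320 CPM) lay above every macrophage-like library. Rela varied least between classes, with means between 43.9 CPM in epithelial-like and 81.8 CPM in neutrophil-like cells, and neighbouring classes overlapped throughout.

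**Figure D1:**
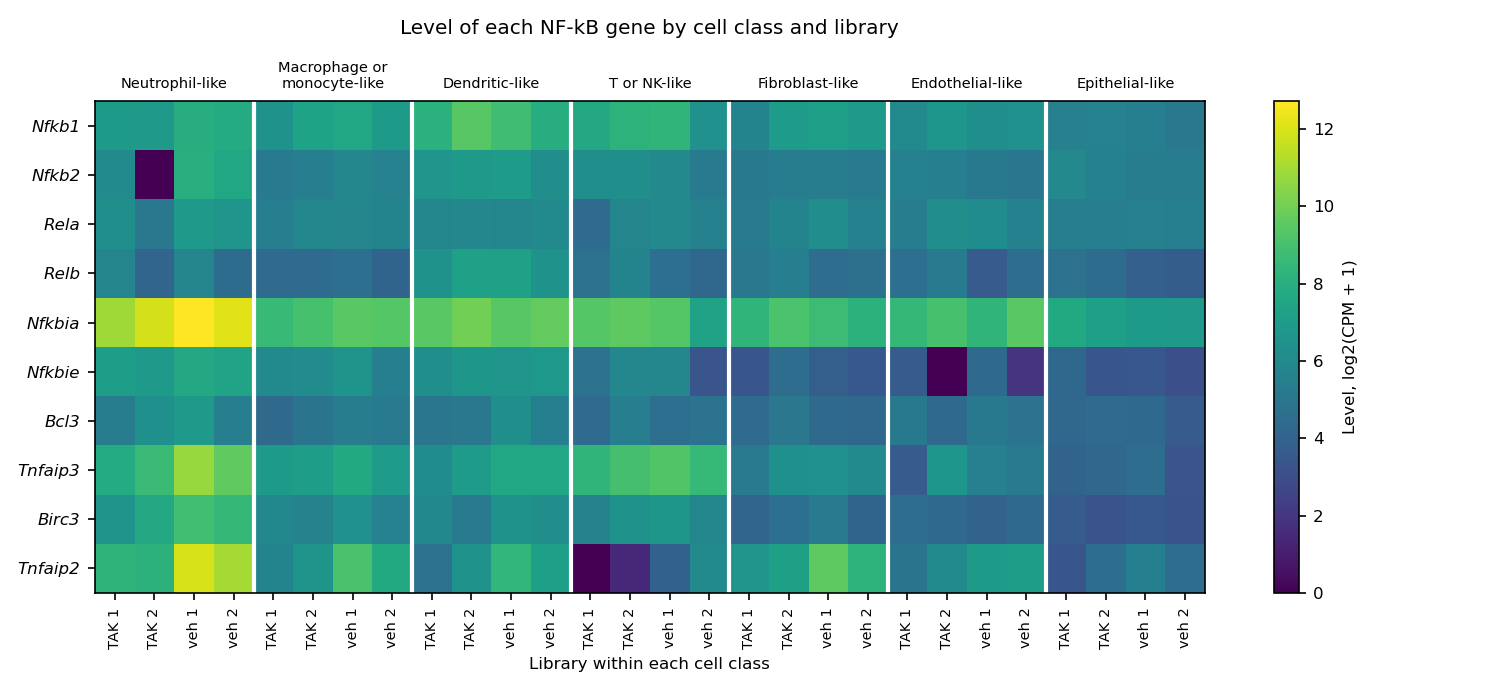
Level of each of the 10 genes as log2(CPM + 1) in each of 7 cell classes (blocks) and 4 libraries (columns, TAK for TAK-981 and veh for vehicle). Nfkbia is brightest in the neutrophil-like block, Relb in the dendritic-like block, and the Tnfaip2 row is darker in the TAK-981 columns than in the vehicle columns of 6 of 7 blocks.

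TAK-981 and vehicle were compared class by class with the edgeR quasi-likelihood test, with 2 mice per group. Of 70 pairs of gene and class, 62 had enough counts to be tested. A single pair passed an adjusted p of 0.05, Tnfaip2 in neutrophil-like cells, which fell. At an unadjusted p below 0.05 there were 10 of the 62 pairs, 5 of them Tnfaip2 and 2 of them Tnfaip3, while in single classes between 9.71% and 21.1% of all genes reached that level. In 22 tested pairs both libraries of one group lay above both of the other. With so few mice this is common: of all genes tested it held for 53.9% in epithelial-like, 46.1% in endothelial-like, 45.5% in macrophage-like, 45.4% in dendritic-like, 45% in neutrophil-like, 45% in T or NK-like and 40.7% in fibroblast-like cells.

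**Figure D2:**
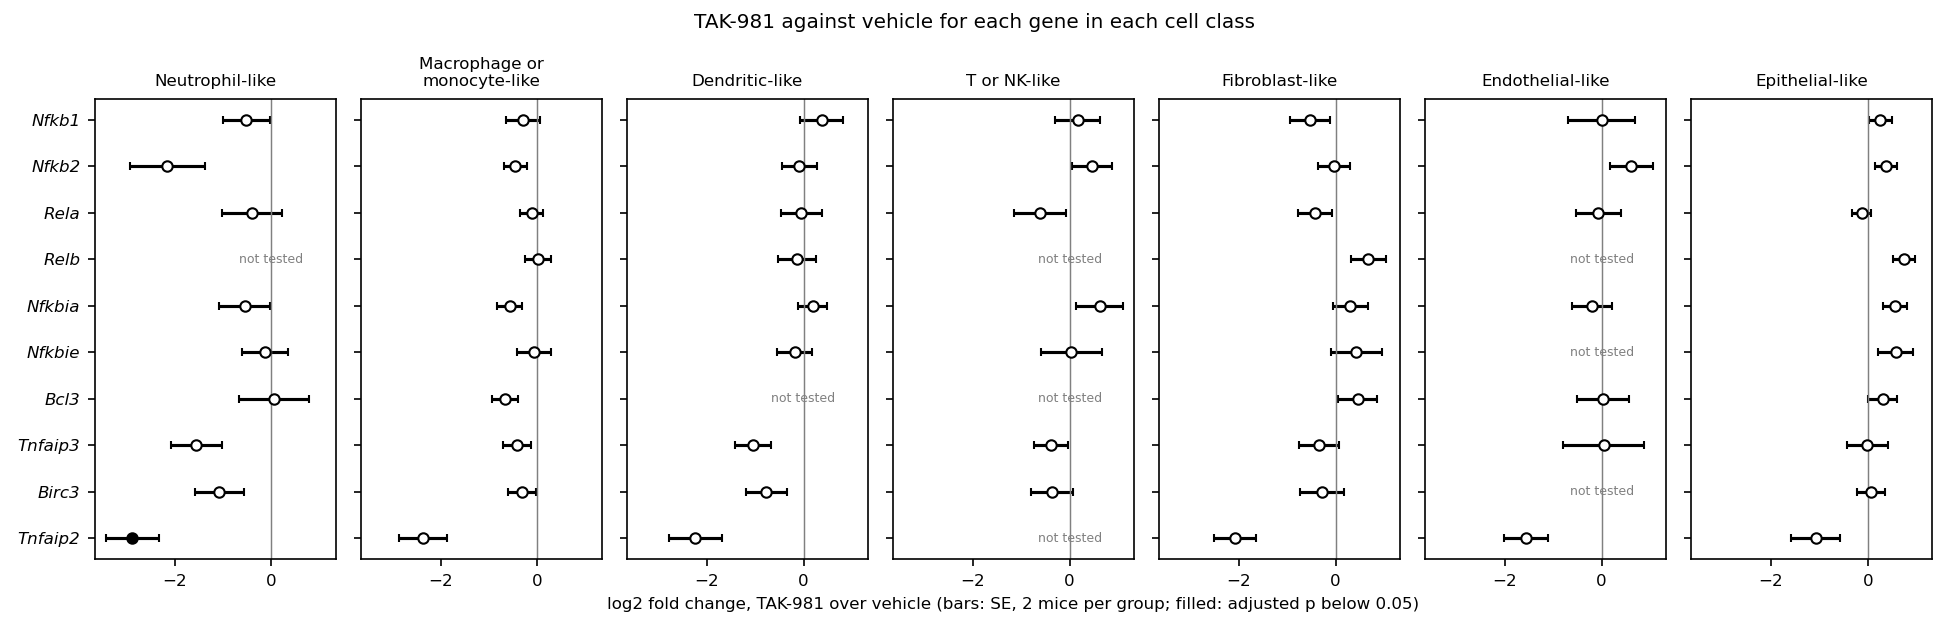
Log2 fold change of TAK-981 over vehicle (horizontal axis) with its SE for each gene (rows) in each cell class (panels), from 2 mice per group. The filled point, Tnfaip2 in neutrophil-like cells at -2.88, is the single pair with an adjusted p below 0.05, and the Tnfaip2 point lies left of 0 in all 6 panels where it was tested.

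Tnfaip2 had a negative fold change in all 6 classes where it was tested, and it fell in neutrophil-like cells, where the vehicle mean was 7.38 times the TAK-981 mean. In these cells it stood at 359 and 303 CPM in the TAK-981 libraries, against 3060.2 and 1824 CPM in the vehicle libraries. Both TAK-981 libraries lay far below both vehicle libraries. The log2 fold change was -2.88 ± 0.54 (SE, n = 2 mice each; edgeR adjusted p = 0.0421), and Tnfaip2 was 1 of the 9 genes of the set tested there, where 0.649% of 2310 genes passed and 0.13% passed as lower. DESeq2 also called 1 of the set there, against 1.49% of all genes. The TAK-981 values rest on 23 and 17 UMIs, against 1097 and 485 under vehicle, and the neutrophil-like cells under TAK-981 had 1561 and 1448.5 UMIs at the median, against 658 and 623. Without TAK-981 1 the adjusted p was 0.121, and without TAK-981 2 it was 0.552, with fold changes of -2.96 and -2.92. The call was also lost with at least 1000 UMIs per cell (edgeR adjusted p = 0.247) and with doublets kept (edgeR adjusted p = 0.102), among other settings. The neutrophil markers themselves summed to 40607 and 72456 CPM in the TAK-981 libraries, against 113083 and 86070.5 CPM in the vehicle libraries, and macrophage markers to 1420.1 and 1963 CPM, against 745 and 512 CPM. The part of these shifts in the Tnfaip2 result was not tested.

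In macrophage-like cells Tnfaip2 stood at 50.1 and 91.2 CPM under TAK-981, against 524 and 206 CPM under vehicle. The 2 groups did not overlap, the log2 fold change was -2.37 ± 0.49, and the edgeR adjusted p was 0.112. Without TAK-981 2 the adjusted p was 0.0269, and the DESeq2 test gave 7.21e-05. In fibroblast-like cells the levels were 97.9 and 144 CPM under TAK-981, against 722 and 305 CPM under vehicle (-2.08 ± 0.44, edgeR adjusted p = 0.0802). The DESeq2 adjusted p was 0.00115. The side of the threshold depended on the libraries, since the edgeR adjusted p was 0.0187 without TAK-981 1, 0.000401 without TAK-981 2 and 0.0132 without vehicle 2. Mesothelial markers in the same sums (6 genes, Krt5 at 0) stood at 66.2 and 112 CPM under TAK-981, against 329 and 243 CPM under vehicle, and 3 of the 5 tested fell. Their part in the fibroblast-like Tnfaip2 values was not tested.

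Dendritic-like cells gave 27.8 and 93.5 CPM under TAK-981, against 356 and 161 CPM under vehicle (-2.24 ± 0.55, edgeR adjusted p = 0.0517). Here the edgeR adjusted p was 7.4e-06 without TAK-981 2 and 1.11e-06 without vehicle 2. Endothelial-like cells gave 38.3 and 80.8 CPM, against 149 and 165 CPM (-1.57 ± 0.46, edgeR adjusted p = 0.126, and 0.00171 without TAK-981 2). In both small classes the groups stood apart, as they did in fibroblast-like cells. In epithelial-like cells the groups overlapped, with 8.42 and 20.7 CPM under TAK-981 and 41.3 and 20.4 CPM under vehicle (-1.07 ± 0.51, edgeR adjusted p = 0.291). In T or NK-like cells the gene had too few counts for the test, with 0 and 1 UMIs under TAK-981 and 3 and 7 UMIs under vehicle. The count of 0 allows up to 9.21 CPM (3 counts), against 17.7 and 84.4 CPM in the vehicle libraries, and such limits cover counting error only.

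**Figure D3:**
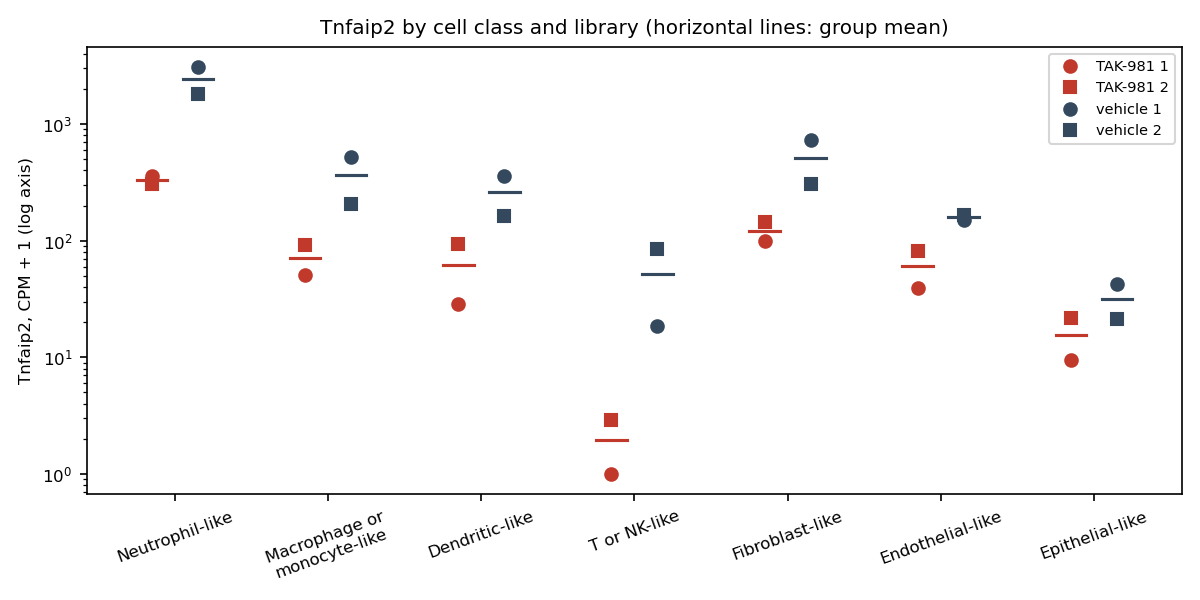
Tnfaip2 as CPM + 1 on a log axis for each library in 7 cell classes, TAK-981 in red and vehicle in dark blue, with group means as lines. Both TAK-981 libraries lie below both vehicle libraries in 6 of 7 classes, and epithelial-like cells, where 20.7 and 20.4 CPM meet, are the exception.

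Tnfaip2 was also compared inside single clusters, a fit added after the data had been seen. In the macrophage-like cluster led by Ccr2 and Vcan, Tnfaip2 stood at 84.0 and 136 CPM under TAK-981, against 551 and 258 CPM under vehicle (here and in other single clusters per 1000000 UMIs without TMM scaling). This fall passed the edgeR test (-2.15 ± 0.39, adjusted p = 0.0298, where 1.9% of 8157 genes passed). In the macrophage-like cluster led by Ccl8 and Pf4 the values were 50.2 and 84.0 CPM under TAK-981, against 342 and 172 under vehicle (-2.09 ± 0.38, adjusted p = 0.052 by edgeR, where 0.299% passed). The Retnlg-led neutrophil-like cluster gave -3.01 ± 0.61 with an adjusted p of 0.0469 by edgeR, where 0.645% of genes passed. This cluster is nearly the whole neutrophil-like class. It held all 39 and 40 cells under TAK-981, and 525 and 382 of the 545 and 383 under vehicle. Its fit therefore repeats the class result and adds no separate comparison. Among epithelial-like clusters, the one led by Areg and Hspb1 held 7.84 and 20.05 CPM under TAK-981, against 47.6 and 32.1 under vehicle. There the groups no longer overlapped, and the fold change was -1.76 ± 0.45 (edgeR adjusted p = 0.0758, where 2.11% of 10933 genes passed). In the Prl-led epithelial-like cluster the groups overlapped, at 11.1 and 21.6 CPM under TAK-981 and 32.2 and 18.1 CPM under vehicle (-0.94 ± 0.40, edgeR adjusted p = 0.215).

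Neutrophil-like cells had the highest Tnfaip2 level and were fewer under TAK-981. The Tnfaip2 that would come with neutrophil RNA, were all neutrophil marker RNA in another class from those cells, was 3.104 and 4.38 CPM in macrophage-like cells under TAK-981, out of 52.6 and 93.7 CPM on the shared scale. Under vehicle it was 15.2 and 8.59 CPM out of 538 and 213 CPM. In fibroblast-like cells it was 2.24 CPM in both TAK-981 libraries, against 3.03 and 2.76 CPM in the vehicle libraries, where the gene stood at 748 and 301 CPM. In T or NK-like cells it was 1.37 and 0.667 CPM for levels of 0 and 1.66 CPM under TAK-981, against 2.89 and 6.97 CPM for levels of 14.5 and 65.8 CPM under vehicle. The same amount scaled from macrophage-like cells was 0.968 and 2.65 CPM there under TAK-981, against 19.5 and 9.94 CPM under vehicle, so it passed the level in 3 of the 4 libraries. In dendritic-like cells the amount from macrophage-like cells was 6.22 and 4.67 CPM under TAK-981, against 46.7 and 6.86 CPM under vehicle, for levels of 26.6 and 91.1 CPM, against 346 and 143 CPM. Other sources, and the part of such RNA in the differences between the groups, were not tested. Fewer expressing cells in a class and less RNA in each cannot be told apart from these sums.

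**Figure D4:**
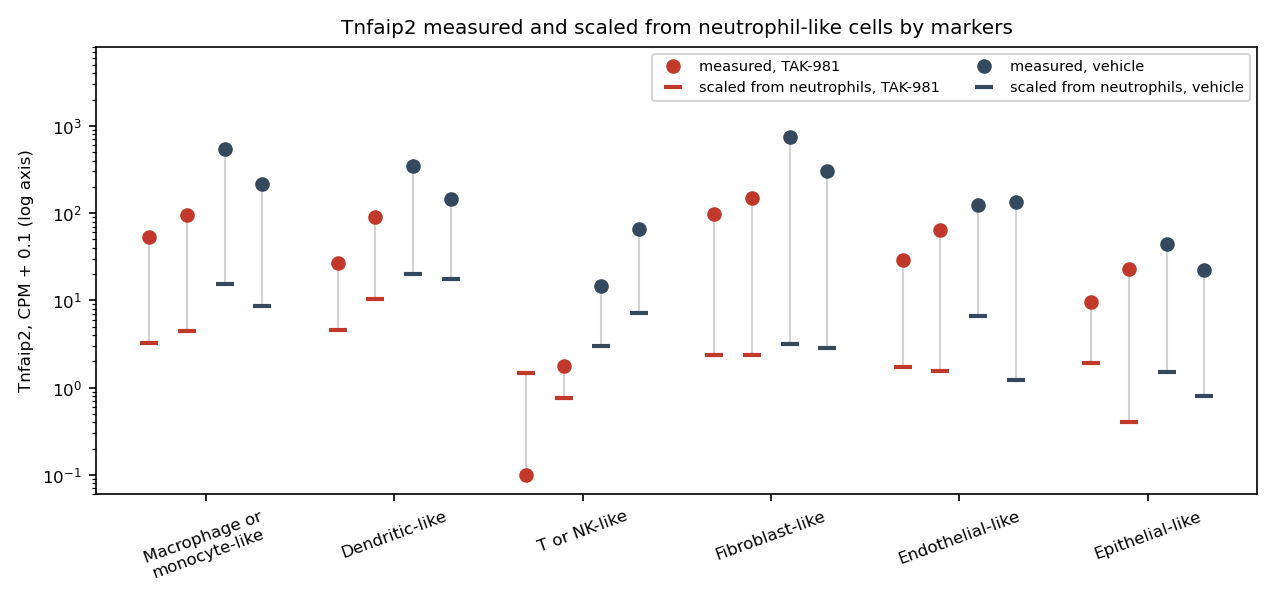
Tnfaip2 measured in each class and library (circles) and the amount scaled from neutrophil-like cells by their markers (dashes), both as CPM + 0.1 on a log axis, with TAK-981 libraries in red to the left of vehicle libraries in dark blue. Except in T or NK-like cells the circles lie well above their dashes, as with 538 against 15.2 CPM in the macrophage-like cells of vehicle 1.

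The inhibitor Nfkbia passed the edgeR test in no class, nor did it at an unadjusted p below 0.05 or with DESeq2, and its fold changes were of either sign. In neutrophil-like cells it stood at 2263 and 4051 CPM under TAK-981, against 5278 and 3984 CPM under vehicle, with overlap (-0.55 ± 0.53, edgeR adjusted p = 0.726). In macrophage-like cells it stood at 379 and 510.1 CPM, against 689 and 632 CPM, without overlap (-0.57 ± 0.26, edgeR adjusted p = 0.401). In epithelial-like cells both TAK-981 libraries, at 183 and 132 CPM, lay above both vehicle libraries, at 111 and 102 CPM (0.56 ± 0.24, edgeR adjusted p = 0.254). Dendritic-like cells overlapped, with 746 and 1072 CPM under TAK-981 and 708 and 904 CPM under vehicle, as did the other 3 classes. Their fold changes were 0.30 ± 0.36 in fibroblast-like, -0.20 ± 0.42 in endothelial-like and 0.62 ± 0.48 in T or NK-like cells.

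Single clusters did not all show the order of the epithelial-like class. Vehicle epithelial-like cells lay mostly in a cluster led by Prl and Ankrd1 (522 and 1097 cells, against 37 and 119 under TAK-981), and Nfkbia there was 56.9 and 67.0 CPM under TAK-981, against 82.5 and 88.9 under vehicle. Within this cluster the fold change was negative, -0.91 ± 0.26 (edgeR adjusted p = 0.0799, where 4.54% of 10730 genes passed). The Ttr-led cluster, with 312 and 196 cells under TAK-981 against 22 and 1 under vehicle, had the order of the class. It held 301 and 222 CPM under TAK-981, against 138 and 101 under vehicle, the latter from 43 and 1 UMIs. In the Phgdh-led cluster the groups overlapped, at 51.6 and 6.63 CPM under TAK-981 and 11.9 and 14.7 under vehicle (0.38 ± 0.77). The Areg-led cluster overlapped between groups, at 171 and 132 CPM under TAK-981, against 145 and 158 under vehicle (-0.22 ± 0.26, edgeR adjusted p = 0.683). A further cluster, led by Prl and 2200002D01Rik, scored highest for epithelial markers but stayed unnamed, so it lay outside this class. It held 23 and 77 cells under TAK-981, against 95 and 614 under vehicle. The class held 990 and 1897 cells, against 951 and 1546. With doublets kept and cells clustered anew it held 584 and 1731, against 311 and 310. Macrophage-like clusters also differed from one another. The Ccr2-led cluster, which held 907 of 1498 macrophage-like cells of vehicle 1, overlapped between groups (698 and 631 CPM under TAK-981, against 656 and 731), whereas the Ccl8-led cluster did not (334 and 474, against 583 and 548).

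**Figure D5:**
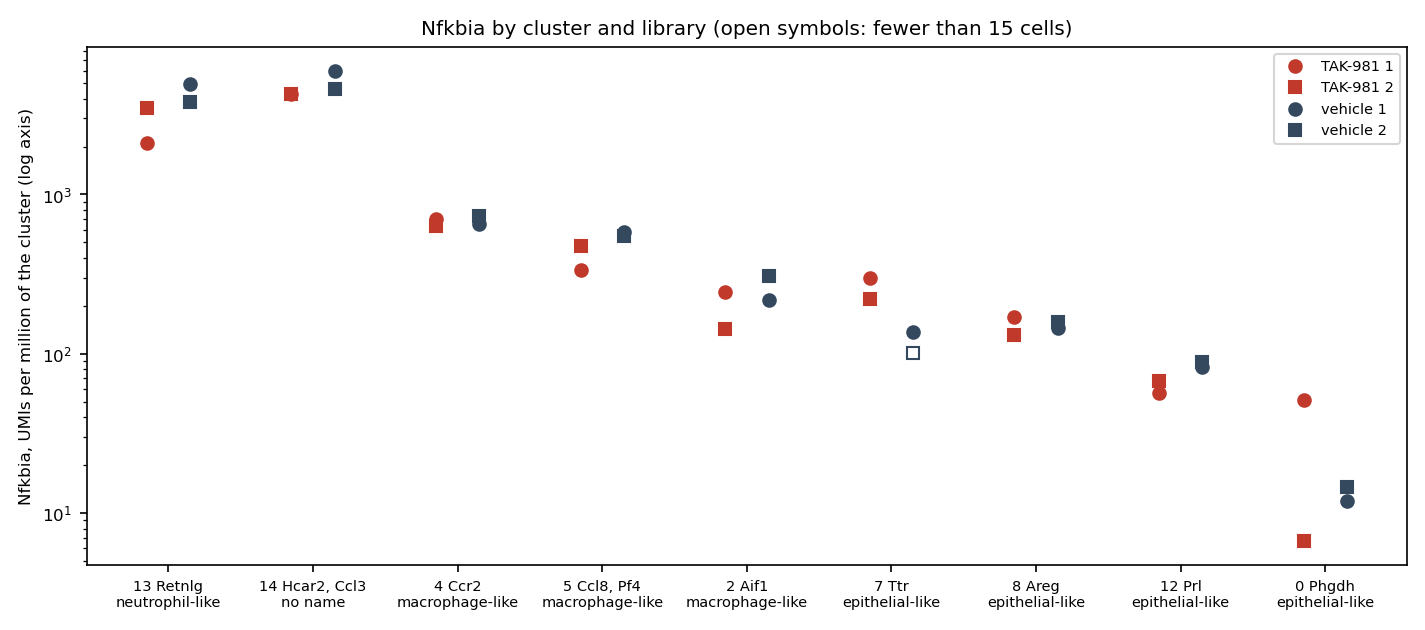
Nfkbia in CPM without TMM scaling on a log axis in 9 clusters, named by number and leading genes, for each library; TAK-981 in red stands left of vehicle in dark blue, and open symbols mark fewer than 15 cells. In the Prl-led epithelial-like cluster the TAK-981 libraries (56.9 and 67.0) lie below the vehicle libraries (82.5 and 88.9), while the class as a whole shows the opposite order.

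Immediate early genes, whose RNA is known to rise while a tissue is dissociated, were summed beside Nfkbia. The summed level of 15 immediate early genes in macrophage-like cells was 6558 and 7768 CPM under TAK-981, against 10409 and 10372 CPM under vehicle, the same order as Nfkbia. In epithelial-like cells it was 3784 and 4114 CPM, against 2743 and 4127 CPM. Their part in the Nfkbia values was not tested.

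The negative regulator Tnfaip3 was lower in both myeloid classes where its unadjusted p was below 0.05. In neutrophil-like cells it stood at 265 and 428 CPM under TAK-981, against 1333 and 696 CPM under vehicle (-1.56 ± 0.53, edgeR adjusted p = 0.218, and 0.00585 without vehicle 2). In dendritic-like cells it stood at 75.4 and 128 CPM, against 205 and 210.5 CPM (-1.04 ± 0.37, edgeR adjusted p = 0.213). The groups stood apart in both, yet neither difference passed the adjusted threshold. The Areg-led epithelial-like cluster alone was lower too, at 13.4 and 18.6 CPM of Tnfaip3 under TAK-981, against 29.6 and 25.7 under vehicle. Its fold change was -1.03 ± 0.33 (edgeR adjusted p = 0.134, where 2.11% of all genes passed). The Prl-led cluster gave -0.44 ± 0.45 and the whole epithelial-like class -0.007 ± 0.43. T or NK-like cells, the second-highest class, overlapped with 374 and 579 CPM under TAK-981 and 762 and 470.4 CPM under vehicle. Birc3 had the same order in the same 2 classes, at 109 and 214 CPM against 368 and 308 CPM in neutrophil-like cells (-1.08 ± 0.51, edgeR adjusted p = 0.378) and at 63.5 and 39.4 CPM against 90.3 and 86.7 CPM in dendritic-like cells. Nfkbie, the other cytoplasmic inhibitor, overlapped between the groups in all 7 classes.

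Among the subunits, Relb had the smallest p-value in tumour-like cells. It stood at 22.4 and 19.0 CPM in epithelial-like cells under TAK-981, against 13.003 and 11.6 CPM under vehicle (0.75 ± 0.23, edgeR adjusted p = 0.146). Its partner Nfkb2 lay above vehicle there too, at 54.3 and 42.6 CPM against 38.4 and 36.3 CPM (0.37 ± 0.23, edgeR adjusted p = 0.393). Macrophage markers in the epithelial-like sums (12 genes, all with a UMI) stood at 656 and 188 CPM under TAK-981, against 187 and 123 CPM under vehicle, and 9 of the 12 had an unadjusted p below 0.05 as higher. Epithelial-like cells without a UMI of Ptprc, C1qa, C1qb, C1qc, Csf1r, Lyz2, S100a8 and S100a9 were fitted as an alternative. Relb, Nfkb2 and Nfkbia kept a positive fold change there. Beyond that fit, the part of macrophage markers in the epithelial-like values of these genes and of the pathway genes was not tested. Within the Prl-led cluster alone the fold changes were 0.29 ± 0.34 for Relb and -0.03 ± 0.26 for Nfkb2. In the Areg-led cluster they were 0.25 ± 0.33 and 0.48 ± 0.29. The Phgdh-led cluster gave 0.45 ± 0.43 for Nfkb2, and Relb could not be tested there. Relb was also above vehicle in fibroblast-like cells, at 33.1 and 42.2 CPM against 21.3 and 25.2 CPM (0.68 ± 0.35, edgeR adjusted p = 0.592).

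In neutrophil-like cells Nfkb2 was at 78.0 and 0 CPM under TAK-981, against 201 and 169 CPM under vehicle (-2.15 ± 0.78, edgeR adjusted p = 0.243). The TAK-981 values come from 5 and 0 UMIs, and the count of 0 allows up to 53.5 CPM. Nfkb1 was lower in the same class with no overlap, at 140.5 and 125 CPM against 187 and 196 CPM (-0.52 ± 0.48, edgeR adjusted p = 0.715). In dendritic-like cells, its highest class, it overlapped with 294 and 708 CPM under TAK-981 and 468 and 272 CPM under vehicle. Rela overlapped between the groups in every class except epithelial-like cells, where it stood at 37.7 and 38.2 CPM under TAK-981, against 42.9 and 40.0 CPM under vehicle (-0.13 ± 0.20, edgeR adjusted p = 0.763). Bcl3 was lower in macrophage-like cells, at 18.8 and 28.0 CPM against 38.8 and 35.9 CPM (-0.67 ± 0.26, edgeR adjusted p = 0.34), and higher in fibroblast-like cells, at 20.7 and 31.3 CPM against 19.6 and 18.4 CPM, and neither passed the test.

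Fold changes of the set were then read class by class. In neutrophil-like cells 8 of 9 tested genes had a negative fold change, with a median of -0.55 against -0.01 over all genes tested, and in 5 of them both TAK-981 libraries lay below both vehicle libraries, as in 22.5% of all genes. At an unadjusted p below 0.05 there were 3 of the 9, against 13.9% of all genes. In macrophage-like cells 9 of 10 were negative, with a median of -0.37 against 0.01, and 4 lay fully below, against 22.3% of all genes. Fitted alone, the Ccr2-led cluster had 7 of 10 negative and 1 called (Tnfaip2), where 1.9% of all genes passed. The Ccl8-led cluster had 8 of 10 negative and 0 called, where 0.299% passed. Over the macrophage-like class as a whole none of the 10 passed by edgeR, as no gene of 10660 did (0%). At an unadjusted p below 0.05 there were 2 of the 10, against 13.4% of all genes, and DESeq2 called 1 of the 10, against 2.48% of all genes with an adjusted p. In epithelial-like cells 7 of 10 were positive, with a median of 0.29 against 0.01, and 3 lay fully above, against 27% of all genes. This count belongs to the class as a whole, whose cells lay in different clusters in the 2 groups. Fitted alone, the Prl-led cluster had 1 of the 10 positive and 9 negative, and the Areg-led cluster 3 positive and 7 negative. In the Phgdh-led cluster 3 genes could be tested, and all were positive. None of the 10 passed by edgeR or DESeq2, where 2.19% of 12621 genes passed by edgeR and 9.92% by DESeq2, and 1 had an unadjusted p below 0.05, against 21.1% of all genes.

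Dendritic-like cells had 7 of 9 tested genes negative, none called by edgeR (4.54% of all genes were), 2 at an unadjusted p below 0.05 (14.5% of all genes) and 1 called by DESeq2 (7.05%). The other 3 classes were nearer to an even split. Fibroblast-like cells had 6 of 10 negative, none called by edgeR (0.946% of all genes), 1 at an unadjusted p below 0.05 (9.71%) and 1 called by DESeq2 (1.79%). Endothelial-like cells had 4 of 7 positive, none called by edgeR (1.82% of all genes) or DESeq2 (2.33%) and 1 at an unadjusted p below 0.05 (16.2%). T or NK-like cells also had 4 of 7 positive, with none called by either tool (0.318% of all genes by edgeR and 2.41% by DESeq2) and none at an unadjusted p below 0.05 (13.2%).

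Whether the effect of TAK-981 differed between classes was tested in a joint edgeR fit of the 5 larger classes with library as a block. None of the 10 genes passed the F test at an adjusted p of 0.05, against 0.551% of 11789 genes. At an unadjusted p below 0.05 there were 7 of the 10, against 11.2% of all genes. The smallest adjusted p-values by edgeR were 0.0645 for Tnfaip3, 0.0695 for Nfkb2, 0.138 for Tnfaip2 and 0.152 for Nfkbia. Which of the 10 genes passed changed with the TAK-981 library left out, among Nfkb2, Tnfaip2, Nfkbia, Tnfaip3 and Birc3. The number of genes called over all genes changed in these fits too, so the joint result rests on single libraries. The Tnfaip2 effect in neutrophil-like minus macrophage-like cells was -1.19 ± 0.55 (edgeR adjusted p = 0.523, where 0% of all genes passed), which does not show the 2 effects to be alike.

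The wider pathway was followed through 63 further genes for receptors and ligands, adaptors and kinases, relatives of the subunits and inhibitors, negative regulators and other known targets. Those that passed the edgeR test were target genes, and all rose. Ccl2, the chemokine that draws monocytes, rose in dendritic-like cells to 274 and 295 CPM under TAK-981, against 20.3 and 12.4 CPM under vehicle (3.88 ± 0.42, edgeR adjusted p = 0.00221). It also rose in endothelial-like cells to 237 and 226 CPM, against 4.66 and 27.5 CPM (3.70 ± 0.56, edgeR adjusted p = 0.0136), and in neutrophil-like cells to 218 and 161 CPM, against 13.9 and 15.0 CPM (3.66 ± 0.60, edgeR adjusted p = 0.0308). Macrophage-like cells held 867 and 1734 CPM of Ccl2, against 682 and 755 CPM, and macrophage markers were higher in the neutrophil-like sums as given above. Macrophage markers also stood at 3197 and 999 CPM in dendritic-like cells under TAK-981, against 1186 and 953 CPM under vehicle, and at 1120.2 and 655 CPM in endothelial-like cells, against 261 and 512 CPM. Their part in the 3 rises of Ccl2 was not tested. Il1b, which encodes IL-1β, rose in fibroblast-like cells to 172 and 238 CPM, against 50.7 and 36.9 CPM (2.24 ± 0.34, edgeR adjusted p = 0.0334). Neutrophil markers in these fibroblast-like sums stood at 254 and 523 CPM under TAK-981, against 108 and 132 CPM, and macrophage markers at 1559 and 643 CPM, against 316 and 512 CPM. Their part in the Il1b rise was not tested.

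Each of these classes had 1 called gene, among 33 tested in dendritic-like, 24 in endothelial-like, 52 in fibroblast-like and 32 in neutrophil-like cells. Of all genes, 0.504%, 0.641%, 0.245% and 0.519% passed as higher in the same 4 classes. By edgeR none of 62 tested passed in epithelial-like cells, none of 61 in macrophage-like cells and none of 32 in T or NK-like cells. DESeq2 called 6 of the 62 higher in epithelial-like cells, where it called 9.92% of all genes, and 1 of the 61 lower in macrophage-like cells (Cxcl2), where it called 2.48%. In T or NK-like cells it called 0 of 19 with an adjusted p. It called 2 of 24 higher in endothelial-like cells (Ccl2 and Cxcl2), where it called 2.33% of all genes. It called 1 of 21 higher in dendritic-like (7.05% of all genes), 1 of 52 in fibroblast-like (1.79%) and 1 of 32 in neutrophil-like cells (1.49%). These DESeq2 shares of all genes, those for epithelial-like and macrophage-like cells included, count either direction. Unadjusted p-values below 0.05 were split in macrophage-like cells (3 higher, 5 lower) and in T or NK-like cells (4 higher, 3 lower), and in epithelial-like cells 12 were higher and 1 lower. Higher at that level were 5.85%, 5.79% and 10.5% of all genes in these classes. In neutrophil-like cells 2 were higher and 6 lower (6.75% of all genes were higher and 13.9% either way), among these lower ones Tnf at 62.4 and 143 CPM under TAK-981, against 338 and 226 CPM under vehicle (edgeR adjusted p = 0.276), and Rel, the c-Rel subunit, at 15.6 and 143 CPM, against 251 and 229 CPM (edgeR adjusted p = 0.315). In epithelial-like cells the TNF receptor gene Tnfrsf1a stood at 59.6 and 50.8 CPM, against 25.7 and 24.7 CPM (1.13 ± 0.22, edgeR adjusted p = 0.0579), beside the macrophage markers given above. These 3 genes were named after their values were seen.

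Over the 20 class and library sums of the 5 larger classes, the genes of the set followed one another as the classes did. Pearson r of log2(CPM + 1) was 0.94 for Birc3 with Tnfaip3, 0.91 for Birc3 with Nfkbia and 0.90 for Nfkbia with Nfkbie. Among 3312 genes, those most like Nfkbia were Il1r2 and Junb (r = 0.97 each), Gadd45b and Pim1 (0.96 each) and Tut7 (0.95). Tnfaip3 was most like Dennd4a (0.97), Ankrd44 (0.96), D16Ertd472e, Arid5a and Erbin (0.95 each). Nfkb1 was closest to Arid1a and Tmem123 (0.90 each), Bhlhe40 (0.89), and Tnfaip3 and Nr4a3 (0.88 each), and Nfkb2 to B3gnt2 (0.94), Cdc40 (0.93), Sgms1 and Dennd1b (0.92 each) and Sp3 (0.91). The points share libraries, depth and class, so the coefficients describe the order of the classes and are no test.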

How the data were processed

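Single-cell RNA was measured in 4 tumour libraries, 2 mice per group, each library from 1 mouse per the labels. The deposited matrices give whole UMI counts for each gene in each barcode. Per the submitters' processing notes the tool was Cell Ranger 6.1.2 and the build mm10, which the file headers name too. The annotation release is not given in the sources used here. All 4 deposited matrices were read in full, and their barcodes were then filtered. Kept barcodes had 500 or more UMIs, 250 or more genes and a mitochondrial share up to 20%, and Scrublet doublets were removed at 0.8% per 1000 cells (41 and 81 barcodes under TAK-981, against 168 and 146 under vehicle). Cells were clustered with scanpy 1.11.5 (2000 variable genes, 30 components, 15 neighbours, Leiden resolution 1.0), and clusters were named from marker lists when at least 3 markers were each found in 10% of cells. A cluster whose top 10 genes favoured another list, or that was shallow without a marker there, stayed unnamed, so class sizes may differ from the study's own.

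UMIs were added up by class and library, and TAK-981 was set against vehicle by the quasi-likelihood test of edgeR 4.0.16 in R 4.3.3 (filterByExpr, TMM, Benjamini-Hochberg over all genes of a class, threshold 0.05). DESeq2 1.42.0 was an alternative. P-values rest on the spread between 2 mice per group. The test was tried on simulated counts with 200 changed genes. Of 4-fold changes it recovered 34.7% in neutrophil-like and 92% in macrophage-like cells, and of 2-fold changes 2.08% and 15.2%. In the measured macrophage-like sums 0 of 10660 genes passed. Tnfaip2 had an edgeR adjusted p of 0.112 there, with a vehicle mean 5.16 times the TAK-981 mean. Whether the recovery is as high in the measured counts was not tested. Replicate libraries differed by far more than sampling noise (chi-squared over its degrees of freedom was 122 between the TAK-981 and 129 between the vehicle libraries). The amount of Tnfaip2 scaled from a source class is its level there times the ratio of that class's summed markers in the 2 classes of a library.

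The 10 genes and all lists were chosen with earlier results of these data known. All 10 genes are described, pathway genes are named when their adjusted p is below 0.05, at most 6 per class and direction, and likeness is the 5 highest Pearson r among genes with a mean log2(CPM + 1) of at least 5. Promoters were matched by symbol to the RefSeq table of GRCm38.p6.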

Additional observations from a re-analysis of the deposited data

How the results depend on the processing

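The direction of Tnfaip2 held in 114 of 114 values over its 6 tested classes and every alternative fitted, whereas its call did not. Of 28 fold changes followed, 23 reversed under none of the alternatives. Followed were tested pairs whose groups did not overlap or whose unadjusted edgeR p was below 0.05, and all tested pairs of Nfkbia and Tnfaip2. Where the groups do not overlap, leaving out 1 library can hardly change the sign, so these counts are no test of stability. For Tnfaip2 this applies to every tested class except epithelial-like cells. In neutrophil-like cells the number of genes of the set called went to 0 without mitochondrial and ribosomal protein genes, with no doublet removal, with at least 1000 UMIs per cell, with pathway and interferon genes left out of clustering, with thinned libraries and with every cluster given its best-scoring name (edgeR adjusted p of Tnfaip2 between 0.0516 and 0.247), and ranged from 0 to 2 when 1 library was left out. Other classes moved to 1 called gene, always Tnfaip2. That held with no low-count filter in dendritic-like, endothelial-like, epithelial-like, fibroblast-like, macrophage-like and T or NK-like cells, with DESeq2 in dendritic-like, fibroblast-like and macrophage-like cells, with RLE factors in dendritic-like cells and with thinned libraries in fibroblast-like cells, and in the Ccr2-led macrophage-like cluster alone. Leaving out 1 library gave 0 to 1 called in dendritic-like, endothelial-like, fibroblast-like and macrophage-like cells. Such fits leave 1 library in a group, which is assumed to vary like the other group. The joint test of a difference between classes called 3 genes with thinned libraries and 0 to 4 without 1 library.

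Same-numbered libraries did not deviate together (r between -0.206 and -0.034), so the titles' numbers are not taken as pairs. With the replicate block, 1 gene was called in neutrophil-like and 1 in fibroblast-like cells and 0 in the other classes. With the numbers crossed, a fit chosen after seeing the data, 1 was called in each of dendritic-like, fibroblast-like, macrophage-like and neutrophil-like cells. Counts over all genes are not given here for each alternative fit, only their range over the alternatives below. The genes of the set called in these alternatives are therefore not set against a background share.

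Without 1 library Nfkbia ranged from -0.069 to 0.42 in dendritic-like, from -0.15 to 0.64 in fibroblast-like and from -0.71 to 0.44 in endothelial-like cells, reversing without TAK-981 2 in the first 2 classes and without vehicle 2 in the other. In the epithelial-like class Nfkbia was -0.91 in the Prl-led cluster and -0.22 in the Areg-led cluster, and Nfkb2 was -0.028 in the Prl-led cluster. The cause of these changes was not tested. Single-cluster fits and best-scoring names were chosen after seeing the data. Over all genes, called counts also moved: between 0 and 1932 in epithelial-like cells (277 in the comparison reported), 0 and 683 in macrophage-like (0), 0 and 94 in neutrophil-like (15), 0 and 141 in T or NK-like (13), 72 and 274 in dendritic-like (144), 34 and 577 in endothelial-like (85), 42 and 400 in fibroblast-like cells (85), and 0 and 614 in the joint test (65). Depth also limits the neutrophil-like values, whose TAK-981 sums held 69346 and 64678 UMIs, against 443461 and 280983 under vehicle.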

Other observations

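A cluster led by Hcar2, Ccl3 and Cd274 scored highest for neutrophil markers but stayed unnamed for its few UMIs, and it entered no comparison. It held 5 and 63 cells under TAK-981, against 213 and 78 under vehicle. Tnfaip2 stood at 0 and 88.2 CPM there (per 1000000 UMIs, without TMM scaling) under TAK-981, against 735 and 621 under vehicle. The count of 0 came from 8467 UMIs and allows up to 354 CPM. Nfkbia stood at 4252 and 4271 CPM under TAK-981, against 5998 and 4565 under vehicle, and Tnfaip3 at 472 and 706, against 878 and 694.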
